A study of Mus musculus with 20 samples.

Results

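The AMPA receptor subunit genes Gria1, Gria2, Gria3 and Gria4 were picked out of the deposited gene map by symbol. They were 4 of the 48709 genes counted, and all 4 passed the filter on low counts, as did 19797 genes in all. RNA-seq counts came from the hippocampus of 20 young adult C57BL/6 mice (C57BL/6J in the study's methods), with 5 animals in each of 4 groups: female and male offspring of control dams (Ct_F and Ct_M), and female and male offspring of dams exposed to nano-sized particulate matter from traffic-laden urban air (nPM_F and nPM_M). Control dams breathed filtered air in parallel. Dams were exposed from gestational day 2 until they gave birth, 3 days a week and 5 h each time. The labels write the particle level as 300 mg/m3, where the study's methods use micrograms. Only the gestation was exposed, so the adult hippocampi were sampled long after exposure had ended. The offspring came from several litters per exposure, and the litter of each sample is not given in the sources used here. By the labels the females were 17.71 to 18.29 weeks old and every male was older, at 18.57 to 19.14 weeks. Sex and age therefore cannot be told apart. The study's methods also describe EdU injections, used to count new neurons, for male offspring in the weeks before tissue collection. If females were not injected, sex cannot be told apart from EdU either.

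AMPA receptors are the glutamate-gated channels that carry most fast excitatory transmission in the brain. Each receptor is a tetramer of the subunits GluA1 to GluA4, encoded by Gria1 to Gria4, and its properties follow from which subunits it holds. The edited form of GluA2 makes a receptor nearly impermeable to calcium, GluA1 is inserted at synapses during long-term potentiation, GluA3 pairs with GluA2 in receptors that turn over constantly, and GluA4 is typical of many interneurons and of early development. Hippocampal pyramidal cells rely mainly on combinations of GluA1, GluA2 and GluA3.

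The 4 genes lie on 4 chromosomes (build mm10, as the gene map gives them). Gria1 (ENSMUSG00000020524.16) spans chr11:57011387-57330244 on the plus strand. Gria2 (ENSMUSG00000033981.14) spans chr3:80681450-80802835 on the minus strand. Gria3 (ENSMUSG00000001986.16) spans chrX:41400854-41678601 on the plus strand, and Gria4 (ENSMUSG00000025892.16) spans chr9:4417896-4796234 on the minus strand. No other gene overlapped Gria1. Gria2 and Gria3 each overlapped 1 miRNA gene with 0 counts in all samples (Gm25749 and Gm22413), and Gria4 overlapped the miRNA gene Gm23811, which had at most 19 counts in a sample.

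The subunits are most alike in their channel-forming part, so the coding sequence around the Q/R site, the codon in the pore that decides calcium permeability, is printed here for each gene. It carries the best known difference between the subunits. The sequences were read from the mm10 transcripts of Gencode M21, 60 bases each in the sense of the gene, with the genomic codon of the Q/R site in capitals. The windows cover chr11:57243057-57243116 in exon 11 of 16 of Gria1, chr3:80706891-80706950 in exon 11 of 16 of Gria2, chrX:41610228-41610287 in exon 11 of 16 of Gria3, and chr9:4464117-4464176 in exon 12 of 17 of Gria4, all of them coding exons.
Gria1: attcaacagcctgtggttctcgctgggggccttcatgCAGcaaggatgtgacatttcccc
Gria2: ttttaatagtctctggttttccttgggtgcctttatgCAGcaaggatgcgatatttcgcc
Gria3: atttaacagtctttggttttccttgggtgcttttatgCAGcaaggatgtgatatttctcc
Gria4: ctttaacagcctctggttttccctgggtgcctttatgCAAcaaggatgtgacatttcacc
The genome encodes glutamine in all 4 genes, as CAG in Gria1, Gria2 and Gria3 and as CAA in Gria4. In Gria2 the RNA is edited here from A to I, which is read as arginine, by the enzyme encoded by Adarb1. Gene counts do not hold the edited base, so editing was not analysed here. Within these 60 bases Gria2 and Gria3 differed at 6 positions, and Gria1 and Gria2 differed at 13. Coding sequences were compared in the longest coding transcript of each gene. There the longest run of identical bases in any pair was 41, between Gria2 and Gria4, and no pair shared a run of 50 bases. Over all transcripts, other coding forms and untranslated parts included, Gria2 and Gria3 had 9 words of 50 bases in common, Gria2 and Gria4 8 and Gria3 and Gria4 4, while Gria1 shared 0 with any of them. Where in the transcripts these words lie was not determined. Read length and the treatment of reads with several matches are not given in the sources used here.

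Total counts ran from 19092067 to 38663408 per sample. The lowest total was in nPM_F 4, where 99.68% of counts fell in the genes tested, against 99.90% to 99.94% in the other libraries. Each subunit gene had at least 1589 counts in every sample, so the counting error of the least abundant, Gria4, was about 1.92% of its level on average, against a spread of 26.6% between the 20 samples. All 5 CA1 markers, 6 CA3 markers and 7 dentate gyrus markers had counts in every sample. So did all markers of neocortex, striatum and thalamus, so presence alone cannot check the hippocampal label. The choroid plexus is a tissue inside the brain ventricles that adjoins the hippocampus. Its markers summed to between 31.9 and 8172 counts per 1000000 counted reads (CPM). Of the 7 libraries over 1000 CPM, 0 were Ct_F, 2 nPM_F, 3 Ct_M and 2 nPM_M. Another pair of libraries stood apart in regional markers: Ct_M 1 had the lowest dentate gyrus sum (221 CPM) and the highest CA1 sum (411 CPM), and nPM_F 1 had the highest dentate gyrus sum (649 CPM) and the highest choroid plexus and striatum sums. The effects on the subunit genes are given with all libraries first and then without the choroid-rich libraries and without this pair, sets chosen after seeing the data.

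Gria1 and Gria2 were among the most abundant transcripts of the tissue. Levels of different genes were compared as RPKM, normalized CPM divided by the gene length of the gene map in kilobases. Gria1 had a mean of 170.8 RPKM ± 23.1 (SD, n = 20), higher than 99.3% of the genes tested, and Gria2 had 96.3 RPKM ± 10.7, higher than 98.5%. Gria3 had 29.0 RPKM ± 4.04 and Gria4 had 15.6 RPKM ± 4.13, higher than 92.6% and 84.6% of the genes tested. The first pair thus made up most of the subunit RNA on this scale. As a share of the summed RPKM of the 4 genes, Gria1 made up 54.7% ± 3.67, Gria2 30.9% ± 2.10, Gria3 9.30% ± 0.928 and Gria4 5.07% ± 1.53 (SD, n = 20). Gria1 ranged from 133.7 to 216.1 RPKM, Gria2 from 75.7 to 116.5, Gria3 from 22.5 to 39.6 and Gria4 from 9.41 to 29.1.

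The order Gria1, Gria2, Gria3, Gria4 held in 20 of 20 samples on this scale. The closest approach was between Gria3 and Gria4 in Ct_M 1, where Gria3 was 1.01 times Gria4, while the median ratio over all samples was 1.95. The Gria1 level was 1.27 to 2.20 times the Gria2 level, with a median of 1.74. That first place depended on the length used. The gene map gives Gria2 15548 bases, the exonic bases of all its transcripts combined, against 6043 for Gria1, 9859 for Gria3 and 6305 for Gria4. With the longest coding transcript in place of the map length (10371, 5546, 5192 and 5441 bases in the same order), Gria1 exceeded Gria2 in 19 of 20 samples. With the coding length alone, which is nearly equal in the 4 genes (2649 to 2721 bases), Gria1 exceeded Gria2 in 0 of 20 samples, and Gria2 had a mean of 565 CPM per kilobase ± 62.7 against 379 ± 51.3 for Gria1 (SD, n = 20). The order of Gria3 and Gria4 below both did not depend on the length. Which of Gria1 and Gria2 has more transcripts per cell is therefore not settled by these counts, because the deposited values do not separate transcript forms with short and long 3′ ends.

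**Figure D1:**
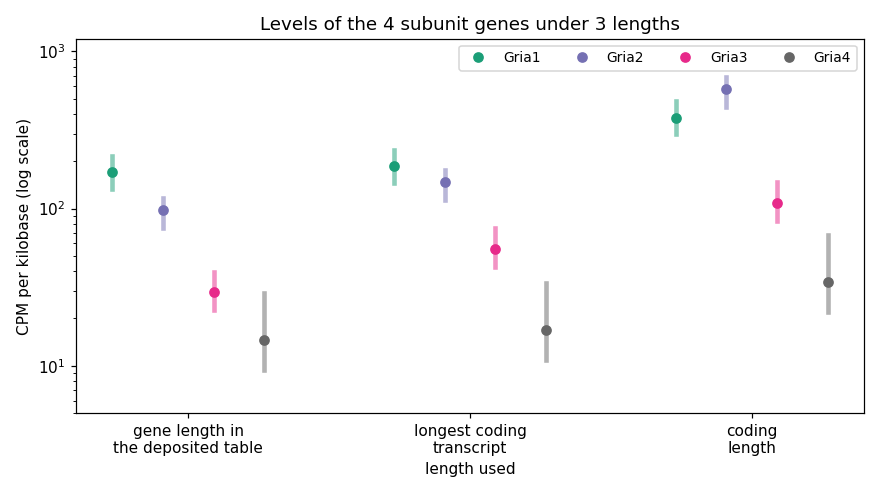
Level of each subunit gene in CPM per kilobase (log scale) under 3 choices of length, with the median of 20 samples as a point and the full range as a bar. Gria1 lies above Gria2 with the gene map length (medians of 170.3 and 98.0) and below it with the coding length (378 and 575), and Gria3 lies above Gria4 throughout.

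The first question of the design was whether gestational nPM changed these genes in the adult offspring. No subunit gene passed the study's nominal threshold, an unadjusted p under 0.005, in limma-voom with sex as a covariate, in which 28 of 19797 genes (0.141%) did. Gria1 was 1.07-fold in nPM against control (95% confidence interval 0.953 to 1.20), Gria2 0.986-fold (0.887 to 1.10), Gria3 0.979-fold (0.866 to 1.11) and Gria4 0.866-fold (0.711 to 1.06), each with an adjusted p = 0.9998. The values of the single animals show how closely the groups overlapped. They are given below as normalized CPM, replicates 1 to 5 in order.

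Gria1, the subunit whose delivery to synapses accompanies potentiation, read 873.3, 915.3, 1123.8, 1176.0 and 1305.7 CPM in Ct_F and 1102.3, 1084.9, 1197.2, 1225.2 and 808.1 CPM in nPM_F. In males it read 856.6, 941.4, 973.0, 842.9 and 987.8 CPM in Ct_M and 987.7, 1084.8, 1139.5, 949.4 and 1070.2 CPM in nPM_M. The female groups covered the same range, with both the highest and the lowest value of the gene among them. The male groups were tighter, and 3 of 5 nPM_M samples were above every Ct_M sample. In males Gria1 was 1.14-fold in nPM against control (log2 difference 0.19, SE 0.0698, 95% confidence interval 0.03 to 0.34, limma-voom adjusted p = 0.963), which ranked 321 of 19797 genes by p-value. None of the 4 genes reached an unadjusted p under 0.005 in males, against 0.207% of all genes, and Gria1 alone was under 0.05, as 4.28% of all genes were. The exact permutation test over all groupings of the 10 males gave p = 0.0397 (two-sided; smallest possible 0.00794), and p = 0.635 after Benjamini-Hochberg adjustment over the 16 tests of 4 genes in 4 comparisons. Leaving out Ct_M 1, Ct_M 2, Ct_M 4, nPM_M 2, nPM_M 3 or nPM_M 5 took this exact permutation p above 0.05, up to 0.0952.

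In females the difference of Gria1 lay inside the spread of the animals (log2 difference 0.02, 95% confidence interval -0.28 to 0.32, limma-voom adjusted p = 0.9999; two-sided exact permutation p = 0.960). None of the 4 genes reached an unadjusted p under 0.005 in females, against 0.0909% of all genes. The difference between the sexes in the nPM effect on Gria1 was itself tested and was 0.18 on the log2 scale (95% confidence interval -0.15 to 0.51, limma-voom adjusted p = 0.987), and none of the 4 genes reached an unadjusted p under 0.005 there, against 0.217% of all genes. A difference between males and females in the response of Gria1 was therefore not detectable with 5 animals per group.

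Gria2, the subunit that sets calcium permeability, read 1297.1, 1423.3, 1705.0, 1610.8 and 1535.2 CPM in Ct_F and 1320.1, 1519.9, 1399.9, 1810.8 and 1299.8 CPM in nPM_F. In males it read 1732.1, 1480.2, 1527.2, 1299.0 and 1453.1 CPM in Ct_M and 1176.6, 1646.1, 1615.5, 1544.9 and 1555.5 CPM in nPM_M. The control and nPM groups overlapped throughout. The lowest sample of all 20 was nPM_M 1, and the highest was nPM_F 4, the library with the fewest counts. The log2 difference of Gria2 between nPM and control was 0.005 in males (95% confidence interval -0.21 to 0.22, limma-voom adjusted p = 0.997) and -0.03 in females (-0.26 to 0.20, adjusted p = 0.9999). With both sexes and all libraries the log2 interval of Gria2 ran from -0.17 to 0.13, the narrowest of the 4 genes.

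Gria3, the X-linked subunit gene, read 268.1, 317.8, 314.1, 307.1 and 287.3 CPM in Ct_F and 227.0, 296.7, 301.0, 390.2 and 249.1 CPM in nPM_F. In males it read 289.6, 264.4, 324.4, 230.7 and 270.4 CPM in Ct_M and 221.9, 260.9, 273.9, 322.2 and 295.5 CPM in nPM_M. The nPM_F group was the widest, since nPM_F 4 was the highest and nPM_F 1 the next to lowest of all samples, while the means of the groups lay close together. The log2 difference between nPM and control was -0.01 in males (95% confidence interval -0.24 to 0.23, limma-voom adjusted p = 0.997) and -0.04 in females (-0.32 to 0.24, adjusted p = 0.9999).

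Gria4, the least abundant subunit, read 118.5, 125.7, 84.8, 94.2 and 70.7 CPM in Ct_F and 59.3, 89.8, 78.3, 100.7 and 99.3 CPM in nPM_F. In males it read 183.6, 87.4, 111.0, 96.1 and 88.2 CPM in Ct_M and 115.8, 86.9, 75.8, 108.3 and 88.6 CPM in nPM_M. Its highest value was in Ct_M 1 and its lowest in nPM_F 1, the 2 libraries that stood apart in regional markers. The log2 difference between nPM and control was -0.21 with both sexes (SE 0.137, 95% confidence interval -0.49 to 0.08, limma-voom adjusted p = 0.9998), -0.21 in males (-0.63 to 0.21, adjusted p = 0.963) and -0.19 in females (-0.57 to 0.19, adjusted p = 0.9999). Without those 2 libraries the difference with both sexes was -0.05 (limma-voom adjusted p = 0.999), while without the choroid-rich libraries it was -0.25 (adjusted p = 0.9999). The first of these leaves out the highest control and the lowest exposed value, and the estimate moved in the other direction under the second. The exact permutation test with both sexes, all 20 samples included, gave p = 0.192 (two-sided, adjusted p = 0.984).

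Leaving out these libraries moved several estimates, although no subunit gene reached an unadjusted p under 0.005. Without the choroid-rich libraries, which leaves 2 Ct_M and 3 nPM_M samples, the male log2 difference of Gria4 went from -0.21 to -0.46 (95% confidence interval -0.99 to 0.06, limma-voom adjusted p = 0.677) and that of Gria2 from 0.005 to -0.21 (-0.55 to 0.14, adjusted p = 0.702). Gria3 was then -0.15 and Gria1 0.13 in males (adjusted p = 0.787 and 0.721). In females, with 5 Ct_F and 3 nPM_F samples left, Gria1 went from 0.02 to 0.14, and Gria2, Gria3 and Gria4 were 0.06, 0.14 and -0.11 (adjusted p = 0.9997 for each). The male minus female difference in the nPM effect on Gria1 was then -0.01 (95% confidence interval -0.42 to 0.40, limma-voom adjusted p = 0.990) in place of 0.18, and those of Gria2, Gria3 and Gria4 were -0.27, -0.29 and -0.35 (adjusted p = 0.683, 0.677 and 0.732). The male value of Gria1 thus stayed positive, but its distance from the female value did not hold without the choroid-rich libraries. Without Ct_M 1 and nPM_F 1 the male difference of Gria4 was -0.02 and the female -0.07, and Gria1 was 0.16 in males and 0.01 in females. The male minus female difference for Gria1 was 0.15 there.

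**Figure D2:**
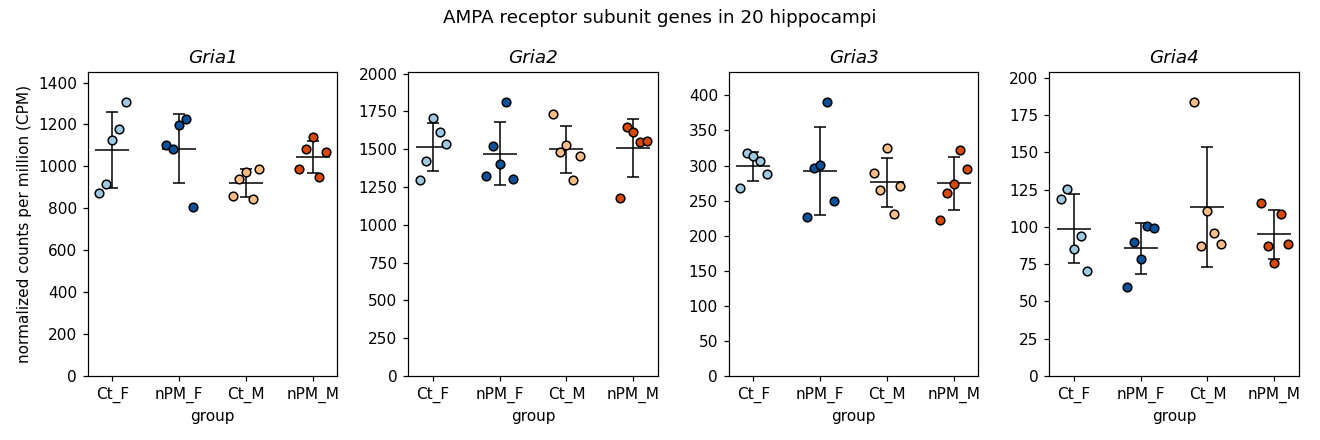
Normalized CPM of each subunit gene in every sample (points, replicates 1 to 5 from left to right) with the group mean and SD (bars), 5 samples per group, each axis starting at 0. The groups overlap for every gene, and the Gria4 value of 183.6 CPM in Ct_M 1 stands above all other samples.

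Receptor make-up depends on the balance between subunits, so the ratio of each of the other subunits to Gria2 was taken within each sample, where library size and scaling cancel. Over the 20 samples the RPKM ratio of Gria3 to Gria2 was the steadiest, with a median of 0.299 (range 0.250 to 0.352). The ratio of Gria4 to Gria2 had a median of 0.146 and ran from 0.111 to 0.261. The ratio of Gria1 to Gria2 averaged 0.66 ± 0.18 in Ct_M and 0.84 ± 0.17 in nPM_M on the log2 scale (SD, n = 5), a 1.13-fold difference (two-sided exact permutation p = 0.143, adjusted p = 0.939). This log2 difference of 0.18 was 0.10 without Ct_M 1, 0.11 without nPM_M 1 and 0.33 without the choroid-rich libraries. In females it averaged 0.86 ± 0.16 in Ct_F and 0.92 ± 0.20 in nPM_F, a 1.04-fold difference (exact permutation p = 0.659, adjusted p = 0.960). None of the 12 comparisons of 3 ratios passed an adjusted p of 0.05, the smallest adjusted p being 0.939 by the exact permutation test. At an unadjusted p under 0.05 the count was also 0.

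Males and females were compared with exposure as a covariate. None of the 4 subunit genes reached an unadjusted p under 0.005, which 6147 genes (31.1%) did in this comparison. In males against females Gria1 was 0.916-fold (95% confidence interval 0.816 to 1.03, limma-voom adjusted p = 0.215), Gria2 1.01-fold (0.907 to 1.12, adjusted p = 0.918), Gria3 0.934-fold (0.826 to 1.06, adjusted p = 0.376) and Gria4 1.12-fold (0.921 to 1.37, adjusted p = 0.352). Gria3 thus gave no detectable sex difference, and its interval leaves out any difference above 1.06-fold toward males. Endothelial marker RNA moved with sex: all 6 markers were counted in every sample. Their sum was 144.8 to 203.5 CPM in females and 112.9 to 135.3 CPM in males, without overlap. Bulk RNA does not tell whether the number of these cells differed. Without the choroid-rich libraries the log2 differences of Gria1 and Gria4 were -0.22 (adjusted p = 0.105) and 0.39 (adjusted p = 0.0953) in limma-voom, still short of the threshold. Without Ct_M 1 and nPM_F 1 they were -0.10 (adjusted p = 0.348) and 0.01 (adjusted p = 0.935), so the difference of Gria4 between the sexes depended on which libraries were kept. The part of tissue make-up in these differences was not tested.

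**Figure D3:**
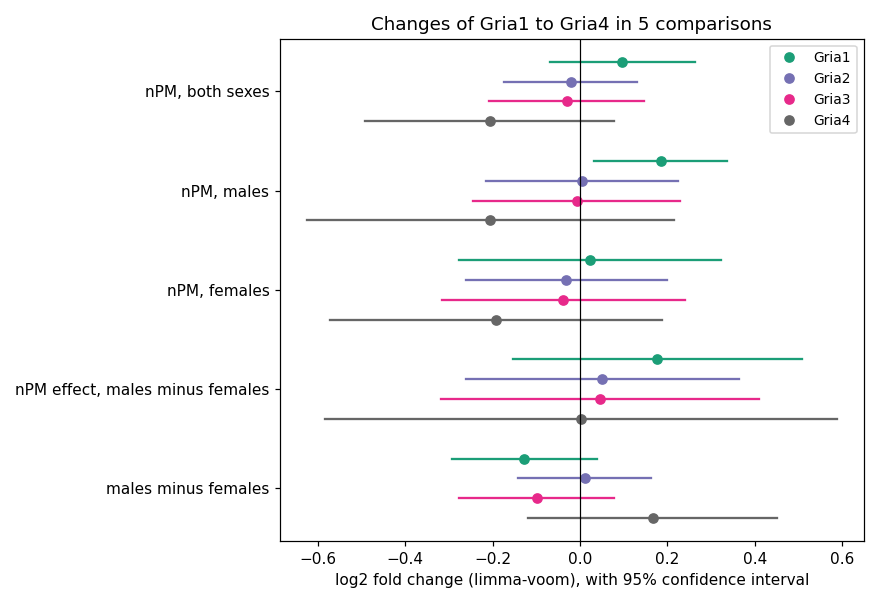
Log2 fold change of each subunit gene in the 5 limma-voom comparisons, with the 95% confidence interval as a line. Gria1 in males is the only interval that leaves out 0 (0.03 to 0.34), and the intervals of Gria4 are the widest in each comparison.

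The 4 genes differed from each other in how much they varied. Within groups the SD of the log2 level was 0.19 for Gria1, 0.18 for Gria2, 0.21 for Gria3 and 0.35 for Gria4. Of the 1000 genes nearest in level to Gria4, 97.1% had a smaller within-group SD, and their median was 0.14. For Gria1, Gria2 and Gria3 the shares of like-level genes with a smaller SD were 74.7%, 69.6% and 82.5%. The most variable subunit was also the least abundant, but its spread was far above counting error.

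The subunits did not vary together as a set. Gria2 and Gria3 rose and fell in parallel across the 20 samples (Pearson r = 0.735, permutation p = 0.000300, adjusted p = 0.00180; Spearman rho = 0.568, permutation p = 0.0105, adjusted p = 0.0315, adjusted over 6 pairs). Without nPM_F 4 and nPM_M 1, the 2 samples farthest from the median of Gria2, r was 0.566, and it was 0.768 once the 4 group means had been taken out, 0.831 among females and 0.702 among males. Gria1 and Gria4 ran against each other (r = -0.625, permutation p = 0.00212, adjusted p = 0.00636; rho = -0.647, permutation p = 0.00239, adjusted p = 0.0143). For this pair r was -0.627 without the 2 samples farthest from the median of Gria1, -0.575 with group means taken out, -0.599 among females and -0.648 among males. The other 4 pairs did not pass: r was 0.447 for Gria1 and Gria2 (permutation p = 0.0495, adjusted p = 0.0990), 0.373 for Gria1 and Gria3, 0.207 for Gria3 and Gria4 and 0.072 for Gria2 and Gria4. Leaving out Ct_M 1 raised the first of these to r = 0.603 (permutation p = 0.00640, adjusted p = 0.0155).

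**Figure D4:**
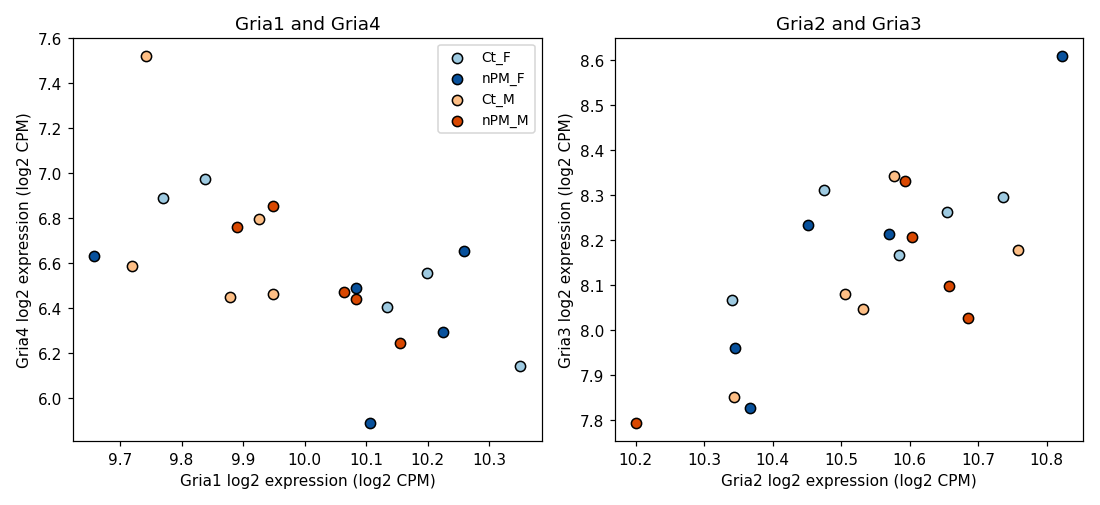
Log2 normalized CPM of Gria4 against Gria1 (left) and of Gria3 against Gria2 (right) in 20 samples coloured by group. Gria4 is lower where Gria1 is higher (r = -0.625), and Gria3 is higher where Gria2 is higher (r = 0.735), with all 4 groups spread along both trends.

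Marker RNA of several cell types and regions moved with these trends. Each subunit gene was compared with the summed CPM of 15 marker lists of hippocampal fields, other cell types and neighbouring regions, 60 pairs in all, and 8 pairs passed an adjusted permutation p of 0.05. In bulk tissue, fewer cells of a type and less RNA per cell cannot be told apart. Gria1 was higher in samples with more CA3 marker RNA (r = 0.705, rho = 0.713, permutation p = 0.000670, adjusted p = 0.00804) and lower in samples with more neocortical marker RNA (r = -0.614, rho = -0.612, permutation p = 0.00458, adjusted p = 0.0344). Without the 2 samples farthest from the list's median these were 0.624 and -0.605. The Gria1 relation to CA3 markers was 0.785 among females and 0.463 among males.

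Gria4 went with other lists, or with the same list in the other direction. It was higher with neocortical markers (r = 0.717, rho = 0.808, permutation p = 0.000260, adjusted p = 0.00465, and 0.608 without 2 samples) and with the 9 interneuron markers (r = 0.623, rho = 0.704, permutation p = 0.00290, adjusted p = 0.0290, and 0.679 without 2 samples), and lower with dentate gyrus markers (r = -0.757, rho = -0.635, permutation p = 0.000310, adjusted p = 0.00465). The dentate gyrus relation rested partly on Ct_M 1 and nPM_F 1, without which r was -0.422. The neocortical relation was 0.930 among females and 0.480 among males. All 6 neocortical markers were counted in every sample, and their sum was 155.0 to 256.7 CPM in Ct_F, 139.2 to 206.2 in nPM_F, 192.9 to 254.0 in Ct_M and 150.7 to 220.4 in nPM_M.

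Gria3 was higher in samples with more CA3 (r = 0.613, rho = 0.603, permutation p = 0.00374, adjusted p = 0.0321) and astrocyte marker RNA (r = 0.762, rho = 0.791, permutation p = 0.000110, adjusted p = 0.00360), and lower with the 5 markers of meningeal fibroblasts, the cells of the brain's covering (r = -0.757, rho = -0.762, permutation p = 0.000120, adjusted p = 0.00360). These were 0.565, 0.760 and -0.660 without 2 samples. The relation to meningeal markers was -0.957 among females and -0.485 among males. The sample highest in Gria3, nPM_F 4, had the lowest meningeal sum (17.4 CPM). Gria3 also ran against choroid plexus markers, short of the threshold (r = -0.546, permutation p = 0.0125, adjusted p = 0.0681). Every meningeal sum of 89.4 CPM (Ct_M 5) or more, up to 208.8 CPM (Ct_M 4), was in a choroid-rich library. The remaining choroid-rich library, nPM_M 2, had 76.1 CPM, against at most 77.8 CPM (a Ct_F sample) in the other libraries. Whether Gria3 was related to meningeal markers apart from choroid plexus was not tested. Gria2 passed with no list, its strongest relation being with astrocyte markers (r = 0.550, rho = 0.472, permutation p = 0.0113, adjusted p = 0.0681).

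Several of these relations depended on how the markers of a list were combined. A sum is set mainly by the most abundant markers, so the standardized log2 levels were also averaged with equal weight, and 5 of the 8 pairs passed again. The astrocyte relations changed sign, to r = -0.275 for Gria3 (permutation p = 0.238) and r = -0.221 for Gria2 (permutation p = 0.348). The relation of Gria3 to CA3 markers was r = 0.215 (permutation p = 0.364, adjusted p = 0.591), and that of Gria4 to interneuron markers was 0.562 (permutation p = 0.00906, adjusted p = 0.0604). With equal weights 2 other pairs passed, both negative: Gria1 with meningeal fibroblast markers (r = -0.609, permutation p = 0.00449, adjusted p = 0.0385) and Gria4 with CA3 markers (r = -0.649, permutation p = 0.00168, adjusted p = 0.0202). The part of dissection and cell make-up in the levels of the subunit genes was not tested.

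**Figure D5:**
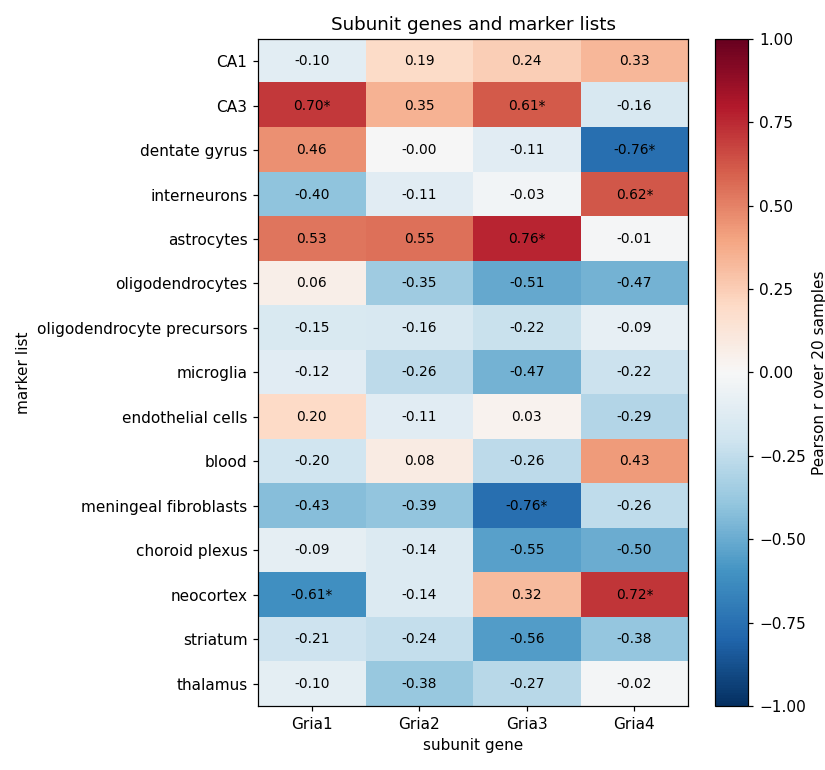
Pearson r over 20 samples between the log2 level of each subunit gene (columns) and the log2 summed CPM of each marker list (rows), red for positive and blue for negative, with an asterisk where the adjusted permutation p was under 0.05. Gria1 and Gria4 have opposite signs for CA3, dentate gyrus, interneuron and neocortex markers, and Gria2 carries no asterisk.

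For each subunit the 3 genes with the highest Pearson r of log2 level over the 20 samples were taken from all 19797 genes, as a description. Gria1 went with Arhgef28 (r = 0.912), Iqgap2 (0.898) and Pkp2 (0.898), of which Iqgap2 encodes a scaffold of the cytoskeleton and Pkp2 a desmosomal plakophilin. Gria2 went with BC002059 (0.849), Ppp4r4 (0.849) and Anks1b (0.846), the last of which encodes a postsynaptic protein. Gria3 went with Mapk10 (0.918), which encodes the neuronal kinase JNK3, with Dlgap1 (0.915), a postsynaptic scaffold that binds PSD-95, and with Ttc19 (0.902), a mitochondrial protein. Gria4 went with Lgi2 (0.916), the calcium-binding Necab1 (0.913) and Sparcl1 (0.909), which encodes the secreted protein hevin. The 4 sets had no gene in common, which says little for sets of 3 out of 19797 genes. With group means taken out these 12 values ranged from 0.855 to 0.928. They come from the same samples that selected the genes, so they are no separate check.

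Receptor function also rests on the proteins that assemble, traffic and anchor the subunits. A list of 58 such genes in 10 roles was read in the same fits, and all 58 passed the filter on low counts. With both sexes, in males, in females and for the difference between the sexes, 0 of 58 reached an unadjusted p under 0.005 in limma-voom, in edgeR or in DESeq2, against 0.141%, 0.207%, 0.0909% and 0.217% of all genes in limma-voom. At an unadjusted p under 0.05 the limma-voom counts were 0, 0, 0 and 1, against 2.1%, 4.28%, 1.99% and 3.79% of all genes. That 1 was Adarb1, chosen for mention after its value was seen, whose nPM effect in males minus that in females was 0.23 on the log2 scale (limma-voom adjusted p = 0.987). The median log2 difference of the list was -0.01 with both sexes, beside -0.01 for all genes tested. It was 0.02 in males beside -0.0013 for all genes, and -0.04 in females beside 0.0038, with 41 of 58 genes negative in females. The median of the male minus female difference was 0.10, beside 0.01 for all genes. Both the female median and this one depended on the libraries kept. Without nPM_F 5 the female median was 0.0004, with 29 of 58 negative. Without the choroid-rich libraries it was 0.02 beside -0.006 for all genes, with 27 of 58 negative. The median of the male minus female difference was then 0.03, beside 0.02 for all genes. Without the choroid-rich libraries 1 of 58 genes passed for the difference between the sexes, Cacng5, which encodes a transmembrane AMPA receptor regulatory protein (log2 difference 2.01, SE 0.559, limma-voom adjusted p = 0.611), against 0.682% of all genes.

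The 2 most abundant genes of each role give an outline of the list in this tissue. Among the transmembrane regulatory proteins that bind AMPA receptors as auxiliary subunits, Cacng8 had a mean of 18.8 RPKM ± 4.53 and Cacng7 10.5 ± 1.15 (SD, n = 20). The cornichon Cnih2, which slows receptor gating, had 79.4 RPKM ± 16.9, against 12.8 ± 2.31 for Cnih3. Shisa6 and Shisa7, auxiliary subunits of another family, had 12.5 ± 3.53 and 10.8 ± 3.10 RPKM. Of the other associated proteins, Olfm1 reached 132.5 RPKM ± 12.5 and Syndig1 11.02 ± 1.85. Frrs1l, which helps assemble the receptor in the endoplasmic reticulum, had 79.6 RPKM ± 11.5 and Abhd12 55.1 ± 3.45. The pentraxins Nptxr and Nptx1, which cluster AMPA receptors from outside the cell, had 62.4 ± 13.4 and 47.8 ± 8.82 RPKM, and Nptx1 is also 1 of the 6 CA3 markers. Nsf, which binds GluA2 and keeps it at the surface, had 109.7 RPKM ± 9.10, and Dlg4, the scaffold PSD-95, had 48.8 ± 10.3. The kinase Camk2a, which phosphorylates GluA1, was the most abundant gene of the list at 229 RPKM ± 57.6, followed by the calcineurin subunit Ppp3ca at 176.5 ± 21.3. The adaptor and ligase genes of endocytosis were intermediate, with 51.1 RPKM ± 4.64 for the ubiquitin ligase gene Nedd4 and 42.9 ± 5.08 for Ap2m1, a subunit of the clathrin adaptor AP-2. The RNA editing enzymes Adar and Adarb1 had 14.8 RPKM ± 1.47 and 14.4 ± 1.5, both close to the level of Gria4. In nPM against control with both sexes the log2 differences of these genes lay between -0.12 (Cnih3) and 0.11 (Ppp3ca), each with a limma-voom adjusted p of at least 0.9998.

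Between the sexes 18 of the 58 genes (31.0%) reached an unadjusted p under 0.005, against 31.1% of all genes, so this count stood at the background. The median log2 difference of the list was -0.09, with 38 of 58 genes negative, beside 0.02 for all genes tested. Lower in males were 10, against 17.1% of all genes. Among them were the scaffold genes Dlg4 (log2 difference -0.49, SE 0.0745, limma-voom adjusted p = 4.3e-05) and Epb41l1 (-0.36). The kinase gene Camk2a (-0.55), the auxiliary subunit gene Shisa7 (-0.57) and the receptor-associated Prrt1 (-0.56) and Prrt2 (-0.81) were also lower. So were the 3 genes listed for RNA editing, Adarb1 (-0.18), Adar (-0.18) and Adarb2 (-0.36). Higher in males were 8, against 13.9% of all genes: 5 of the 7 genes of recycling and endocytosis, namely Rab11a (0.28), Rab11fip2 (0.26), Ap2m1 (0.22), Nedd4 (0.20) and Rab5a (0.18), together with the assembly genes Frrs1l (0.31) and Sacm1l (0.24) and the olfactomedin Olfm3 (0.42). Prrt2 was near the lower limit of detection, with a mean of 0.157 RPKM ± 0.0662. Without the choroid-rich libraries 8 of 58 (13.8%) passed, against 14.9% of all genes. Among them were Dlg4, Camk2a, Adarb2, Shisa7 and Shisa6 lower in males, and Rab11a and Olfm3 higher. Of the 5 genes of recycling and endocytosis only Rab11a passed there, and of the 3 listed for RNA editing only Adarb2. The endothelial marker sums that separated the sexes are given above, and their part in these differences was not tested. Choroid plexus sums overlapped, at 35.1 to 8172 CPM in females and 31.9 to 7282 CPM in males.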

How the data were processed

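RNA was measured by RNA-seq in 20 right hippocampi. The authors prepared ribosome-depleted libraries, checked reads with FastQC, trimmed them with Trimmomatic where needed, aligned them to mm10 with HISAT2 and deposited raw counts per gene from featureCounts 1.5.0-p3 on Gencode M11. The deposited gene map also gives gene lengths and a mean RPKM over all samples, which the counts gave back to within rounding. Strand and the litter of each sample were not given in the sources used here. The p-values measure the spread between these animals and treat them as independent. Some may be littermates, which the p-values and intervals do not take into account.

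Groups came from the labels. Genes were filtered over the 4 groups (edgeR 4.0.16 filterByExpr), scaled by TMM (factors 0.958 to 1.06) and fitted with limma-voom 3.58.1 after the study's methods, with sex as a covariate and within each sex. Values in CPM and RPKM were TMM-scaled, and log2 values carried an offset of 0.5 counts. Benjamini-Hochberg adjustment ran over all 19797 genes. Correlations used 100000 permutations. DESeq2 1.42.0 and edgeR's quasi-likelihood test were alternatives. The fits were tested on simulated data. The values of 1 gene of the pathway list, which its counts include, are not reported here. Replicate pairs differed by at least 14.1 times the counting noise, so no library was counted as a duplicate. Named genes were the subunits, the 3 most alike to each, and from the pathway list those with an unadjusted p under 0.005 in any fit and the 2 most abundant per role. The members and lists were chosen with earlier results of these data known.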

Additional observations from a re-analysis of the deposited data

Results flagged for a closer look

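Within the groups of 5, 2 of 28 checks found a sample far from the others, where chance gives about 1 in 20. In nPM_M, replicate 1 had a Gria2 log2 level of 10.20, and the next lowest sample of the group had 10.59. In Ct_M, replicate 1 had a log2 ratio of Gria1 to Gria2 of 0.35, and the next lowest sample had 0.71. The first library also had the highest interneuron (893 CPM) and thalamus (245 CPM) marker sums of all samples, and the second the lowest dentate gyrus and the highest CA1 sums. The part of these differences in the subunit values was not tested.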

How the results depend on the processing

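No subunit gene reached an unadjusted p under 0.005 in any of the 5 comparisons under any alternative run for it. The alternatives included other tests, scalings, filters, quality weights, single libraries left out, and 2 sets of libraries left out that were chosen after seeing the data. Age as a covariate was run for the nPM comparisons only, not for males against females. The male Gria1 difference ranged from 0.14 to 0.22 with single libraries left out, and its exact permutation value from 0.15 to 0.22. Replicate numbers did not pair the samples (r of same-numbered samples -0.364 to 0.157, and 0 of 10 matched their own number best). With the replicate block the exact value was 0.18 (p = 0.0625, the smallest p possible), and limma-voom called 20 genes with both sexes, 35 in males, 22 in females and 43 for the difference between the sexes.

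Counts of genes with an unadjusted p under 0.005 moved more. With both sexes (28) they were 44 with DESeq2, 71 without a filter, 53 with quality weights, 14 without the choroid-rich libraries and 17 to 47 with 1 library left out. In males (41) they were 112 with DESeq2, 130 without a filter and 23 to 78 with 1 left out. In females (18) they were 56 with DESeq2, 87 without a filter, 44 with quality weights, 29 without the choroid-rich libraries, 33 without Ct_M 1 and nPM_F 1, and 10 to 48 with 1 left out (48 without nPM_F 4). For the difference between the sexes (43) they were 66 with edgeR, 89 with DESeq2, 149 without a filter, 20 among protein-coding genes, 135 without the choroid-rich libraries and 24 to 77 with 1 left out. Between the sexes the count fell from 6147 to 2940 without the choroid-rich libraries, and the list of 58 gave 8 there and 1 for the difference between the sexes.

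Gria1 exceeded Gria2 in 0 of 20 samples with no length or the coding length. The correlation of Gria1 and Gria2 ranged from 0.368 to 0.603 with 1 library left out. Gria3 with astrocyte markers reversed to -0.275 under equal weights, where 7 of 60 pairs passed, 5 of them among the 8 that passed with sums. The cause of these shifts was not tested beyond the fewer samples or other genes that each alternative holds.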
